A study of Mus musculus with 17 samples.

Results

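The enzymes that build triglyceride in fat were followed through their transcripts in epididymal white fat. The mice were adult C57BL/6J males. The group holds 10 genes: Gpam, Agpat2, Agpat3, Agpat5, Agpat9, Lpin1, Dgat1, Dgat2, Mogat1 and Mogat2. They were chosen by name, as every probe of the array whose gene name was one of these symbols or an unambiguous alias, and they have 22 of the 41174 probes and 10 of the 18133 genes tested. All mice were wild type and ate a purified diet with 30% of its energy as fat for 13 weeks. The carbohydrate of that diet had a low glycemic index in 8 mice (LGI) and a high glycemic index in 9 mice (HGI), and no group on a low-fat diet was analysed here. RNA of each mouse was labelled with Cy5 and hybridized on an array of its own against one Cy3-labelled pool made of all LGI and HGI samples. Each value is therefore a log2 ratio of one mouse to the pool: 0 is the level of the pool, and a difference of 1 is a doubling. The pool is not the average of these mice for every transcript. The mean of 5 epididymis markers lay between -3.28 and -2.81 in LGI and between -3.30 and -2.88 in HGI. Of these markers, Defb19 was nearer 0, with a mean of -0.17 in LGI.

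Triglyceride is assembled on glycerol. In the glycerol phosphate route, glycerol-3-phosphate acyltransferases add the first fatty acid, acylglycerol-phosphate acyltransferases add the next and give phosphatidate, and lipins remove the phosphate to give diacylglycerol. In the monoacylglycerol route, which is best known from the small intestine, monoacylglycerol acyltransferases make diacylglycerol directly. Both routes end with the diacylglycerol acyltransferases, which add the last fatty acid. In fat these steps store the fatty acids taken up from blood or made in the cell, and loss of some of these enzymes in mice or people leads to lack of fat tissue.

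Of the probes on each array, 54.2% to 66.7% were well above background in Cy5, and all 9 adipocyte markers examined, such as Adipoq, Plin1 and Fabp4, were so on all 17 arrays. The arrays HGI 9 and HGI 10 stood apart. Over genes, their log ratios correlated with each other at r = 0.81 and with the other 15 arrays at -0.05 to 0.14. Those 15 correlated among themselves at 0.37 to 0.83. In HGI 9 and HGI 10 the mean of 7 seminal vesicle markers was 1.59 and 1.58, against -4.30 to -3.93 in the other 15 arrays. The mean of the 9 adipocyte markers was -0.29 and -0.23 in them, at the low end of the range of -0.29 to 0.15 over all arrays. The markers did not all go this way. Fabp4 read 0.10 in both, against a median of -0.37 in the other 15 arrays. Adipoq read 0.03 and 0.28, against 0.20. Each of the remaining markers, such as Plin1 at -0.31 and -0.42 against 0.09, was below that median in both. The difference of each of the 10 genes is therefore given with and without HGI 9 and HGI 10. LGI 9 differed from the other LGI arrays in marker lists. Its mean of 3 motile cilia markers was 0.67, against an LGI median of -0.30 and at most 0.12 in HGI. Of 5 such markers listed, 3 were tested, and their LGI SD was 0.85 for Tekt1, 0.25 for Tekt4 and 0.07 for Dnaic1. This mean rests largely on Tekt1, which was well above background on 14 arrays. In LGI 9 the mean of 4 epithelium markers was 0.31, against an LGI median of -1.15, and that of the adipocyte markers was -0.27. LGI 9 was also the lowest LGI mouse for Gpam, Agpat3, Agpat5 and Mogat1, whose differences without it were -0.10, -0.12, 0.27 and -0.18; the part of these markers in the results was not tested. The number of mice limits the precision, and the median standard error of a diet difference over all genes was 0.08. In bulk tissue, fewer cells of a type and less RNA per cell cannot be told apart.

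No gene of the group passed the test between the diets (limma, Benjamini-Hochberg adjusted p under 0.05 over 18133 genes), as was so for all genes, of which 0% passed. At an unadjusted p under 0.05, 1 of the 10 genes was called, Agpat5, against 7.74% of all genes in either direction and 3.97% higher in HGI. The exact permutation test gave the same counts, 0 after adjustment and 1 without. Without HGI 9 and HGI 10, limma called Agpat5 and Mogat2 at this level, 2 of 10 genes against 7.79% of all genes, and again 0 after adjustment. Agpat5 and Mogat2 had the largest positive differences, 0.30 and 0.47, Dgat2 was at 0.09, and the other 7 genes were lower in HGI, at -0.25 to -0.07. Over all genes, 47.4% were lower in HGI. The median difference was -0.11 over the 10 genes and 0.01 over all genes, and without HGI 9 and HGI 10 it was -0.08 and 0.00.

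**Figure D1:**
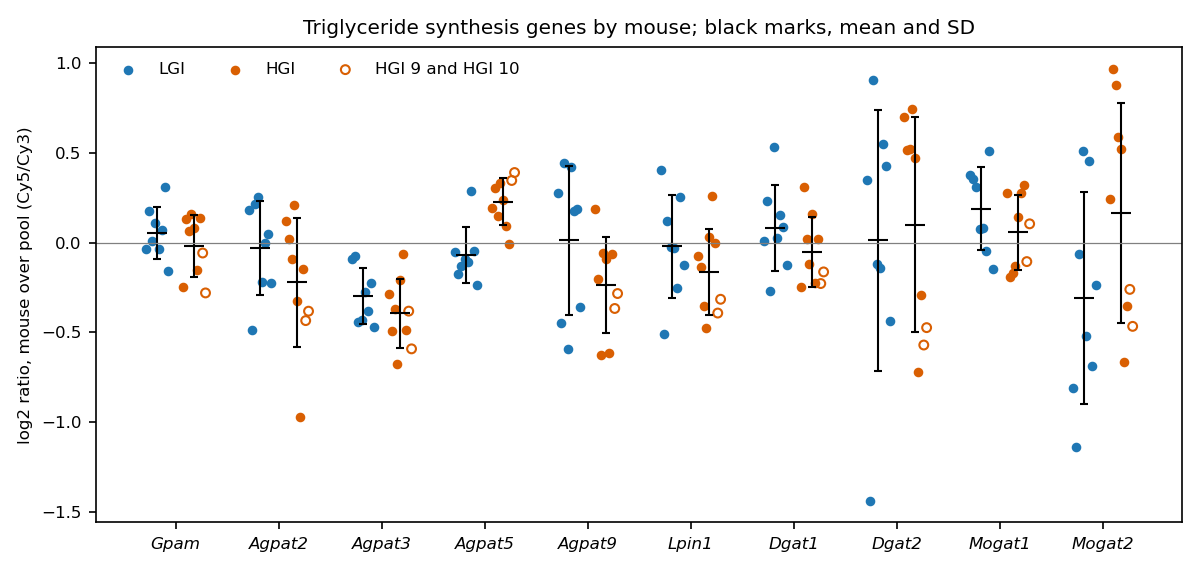
Log2 ratio to the pool (vertical axis) of the 10 genes in each mouse, LGI in blue and HGI in orange, open circles for HGI 9 and HGI 10, with the mean and SD in black. Agpat5 is the gene whose 9 HGI values all lie above the LGI median of -0.10, and Dgat2 and Mogat2 have the widest spread.

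The first acylation is carried by Gpam, the mitochondrial glycerol-3-phosphate acyltransferase, and by Agpat9, now named Gpat3, an acyltransferase of the endoplasmic reticulum. The Gpam probe ranged from -0.16 to 0.31 in LGI, with a median of 0.04, and from -0.28 to 0.16 in HGI, with a median of 0.07. The diets overlapped almost fully, and the difference was -0.07 ± 0.08 (SE; limma adjusted p = 0.842). It was -0.03 without HGI 9 and HGI 10 and -0.04 without LGI 8, the highest mouse. This probe was dim: it was well above background in 8 LGI and 7 HGI arrays. Another probe, carried in the files under the GenBank entry M77003, is described there as a glycerol-3-phosphate acyltransferase mRNA but is not named Gpam, so it lies outside the group. It was well above background on all 17 arrays and ranged from -0.23 to 0.32 in LGI, with a median of -0.03, and from -0.58 to 0.00 in HGI, with a median of -0.38. Of the 9 HGI mice, 8 lay below the LGI median and 6 below the lowest LGI mouse. Its difference was -0.33 ± 0.09 (SE; limma unadjusted p = 0.00208, adjusted p = 0.559 over 25514 probes), and it correlated with the Gpam probe at r = 0.37 over the 17 arrays. The M77003 probe was thus lower in HGI by its mean and its median. The mean of the Gpam probe differed by less than its SE, and its median was slightly higher in HGI. The M77003 probe was looked up after its values were known.

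Agpat9 ranged from -0.59 to 0.44 in LGI, with a median of 0.18, and from -0.62 to 0.19 in HGI, with a median of -0.20. In LGI the mice split into 5 at 0.18 to 0.44 and 3 at -0.59 to -0.36, and 8 of 9 HGI mice lay below the LGI median. The difference was -0.25 ± 0.15 (SE; limma adjusted p = 0.719), and -0.22 without HGI 9 and HGI 10. The further Agpat9 probe differed by the same amount, -0.25 ± 0.11 (SE; limma unadjusted p = 0.0367, adjusted p = 0.629 over probes). In the 15 mice without HGI 9 and HGI 10, where it read -0.54 and -0.59, that probe was at -0.12 ± 0.09.

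The acylglycerol-phosphate acyltransferases gave 3 different pictures. Agpat2, the isoform whose loss causes congenital lipodystrophy, ranged from -0.49 to 0.25 in LGI, with a median of 0.02, and from -0.97 to 0.21 in HGI, with a median of -0.15. The lowest value of all belonged to HGI 6, at -0.97. The difference was -0.19 ± 0.14 (SE; limma adjusted p = 0.765), and it was -0.10 without HGI 6 and -0.14 without HGI 9 and HGI 10. The other Agpat2 probe also gave -0.19 and correlated with the first at r = 0.94 over the arrays.

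Agpat3, a broadly expressed isoform, ranged from -0.47 to -0.08 in LGI, with a median of -0.33, and from -0.67 to -0.06 in HGI, with a median of -0.38. Every mouse of both diets read below the pool on this probe, and 4 HGI mice lay below the lowest LGI mouse. The difference was -0.10 ± 0.08 (SE; limma adjusted p = 0.802), and it was -0.06 without HGI 4, the lowest mouse, and -0.07 without HGI 9 and HGI 10. The second Agpat3 probe did not share this: its difference was 0.01 ± 0.06, its values lay between -0.17 and 0.23, and it correlated with the first probe at r = 0.23. The values of Agpat3 thus differ between its probes, and its correlations rest on the first.

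Agpat5, an isoform found at mitochondria and the endoplasmic reticulum, ranged from -0.24 to 0.29 in LGI, with a median of -0.10, and from -0.00478 to 0.39 in HGI, with a median of 0.24. All 9 HGI mice lay above the LGI median and 4 of them above the highest LGI mouse, which was LGI 7 at 0.29. The highest of these 4 were HGI 10 and HGI 9, at 0.39 and 0.35. The other LGI mice lay at or below -0.04. The group means were -0.07 ± 0.16 (SD, n = 8) and 0.23 ± 0.13 (SD, n = 9), a difference of 0.30 ± 0.07 (SE) or 1.23-fold. In the fit the unadjusted p was 0.000545, rank 13 among 18133 genes, and the limma adjusted p was 0.520. The exact two-sided permutation test over all 24310 splits of the mice gave p = 0.00177, and 0.00622 without HGI 9 and HGI 10, where the difference was 0.26. Leaving out 1 mouse at a time gave 0.27 to 0.35, and the lowest adjusted p of any alternative tried was 0.0814, without LGI 7 (limma; range 0.0814 to 0.999). The second Agpat5 probe was well above background on 0 of 17 arrays and was not tested, so Agpat5 rests on 1 probe too.

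Lpin1 codes for the phosphatidate phosphatase missing in the fatty liver dystrophy mouse. It ranged from -0.51 to 0.41 in LGI, with a median of -0.03, and from -0.47 to 0.26 in HGI, with a median of -0.13. The difference was -0.14 ± 0.12 (SE; limma adjusted p = 0.795). All 4 Lpin1 probes were lower in HGI, at -0.20 to -0.10, as were 49.1% of all probes, and 1 of them had an unadjusted p under 0.05 (limma, 0.0436, against 7.65% of all probes; adjusted p = 0.646). The 3 further probes correlated with the first at r = 0.72 to 0.79, and the first probe was at -0.21 without LGI 2, the lowest LGI mouse, at -0.08 without LGI 1, the highest, and at -0.09 without HGI 9 and HGI 10.

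The last acylation is shared by both routes. Dgat1 ranged from -0.27 to 0.53 in LGI, with a median of 0.06, and from -0.25 to 0.31 in HGI, with a median of -0.12. Its 2 probes gave -0.13 ± 0.10 and -0.18 ± 0.09 (SE; limma adjusted p = 0.785 and 0.676 over probes), and 7 of 9 HGI mice lay below the LGI median. The first probe was at -0.07 without LGI 5, the highest mouse, and at -0.09 without HGI 9 and HGI 10.

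Dgat2, the enzyme that makes most of the stored triglyceride in mice, varied far more between mice than between diets. It ranged from -1.44 to 0.91 in LGI, with a median of 0.12, and from -0.72 to 0.74 in HGI, with a median of 0.47. The SD was 0.73 in LGI and 0.60 in HGI. The HGI mice lay in 2 clusters, HGI 1, 2, 3, 4 and 5, at 0.47 to 0.74, and HGI 6, 7, 9 and 10, at -0.72 to -0.29, with no mouse between. The LGI mice were spread over the whole range, with LGI 2 lowest. The difference was 0.09 ± 0.28 (SE; limma adjusted p = 0.960), the other 2 probes gave -0.05 and -0.04, and all 3 probes followed each other over the mice, at r = 0.95 and 0.96 with the first. Without LGI 2 the difference was -0.12, and without HGI 9 and HGI 10 it was 0.26.

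The arrays were scanned within one day, and the order of scanning splits them into the first 8 (4 LGI, 4 HGI) and the later 9 (4 LGI, 5 HGI). Dgat2 differed by 0.65 ± 0.39 (SE) in the earlier set and by -0.44 ± 0.29 in the later one. The difference of these differences was -1.08 (limma interaction, unadjusted p = 0.0551, adjusted p = 1.00), against 1.03% of all genes with an interaction p under 0.05. Without HGI 9 and HGI 10 it was -1.26 (limma unadjusted p = 0.0223, adjusted p = 1.00). Agpat2 stood at 0.05 and -0.43 and Lpin1 at 0.03 and -0.32 in these sets. Agpat5 stood at 0.29 and 0.30, and Mogat2 at 0.71 and 0.28. The other 5 genes were lower in HGI in both sets. No interaction passed the adjusted threshold for any gene of the array.

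**Figure D2:**
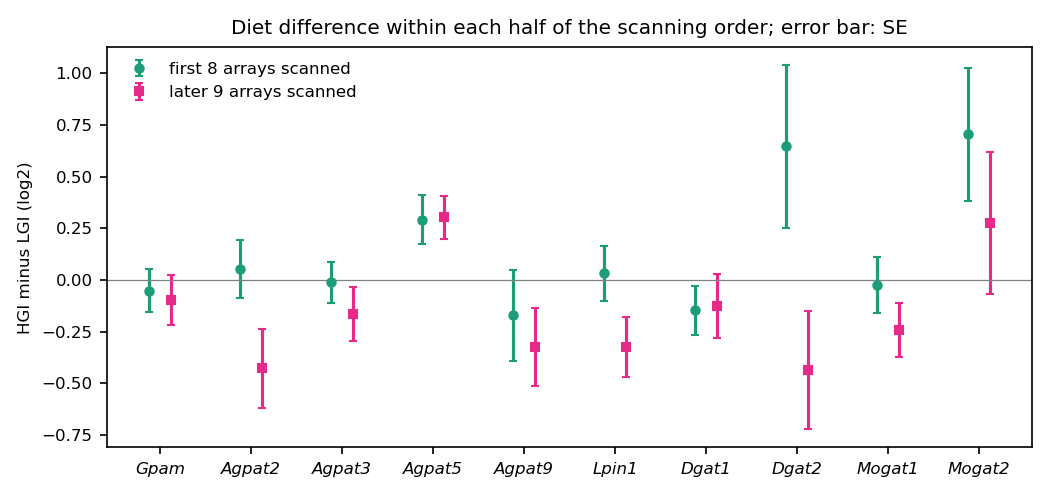
Diet difference HGI minus LGI (log2, vertical axis) of the 10 genes within the first 8 arrays scanned (green circles) and the later 9 (pink squares), with the SE. Agpat5 has nearly the same value in both sets, 0.29 and 0.30, and Dgat2 has opposite signs, 0.65 and -0.44.

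The monoacylglycerol acyltransferases had differences of opposite sign, neither of which passed the test. Mogat1, known from the liver of mice with fatty liver and from fat, ranged from -0.15 to 0.51 in LGI, with a median of 0.20, and from -0.19 to 0.32 in HGI, with a median of 0.11. The difference was -0.13 ± 0.10 (SE; limma adjusted p = 0.780), and all 3 probes were lower in HGI, at -0.15 to -0.06. Without HGI 9 and HGI 10 the first probe was at -0.11 and the 2 further probes were at -0.06 and 0.00, and without LGI 8, the highest mouse, the first was at -0.08.

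Mogat2, the enzyme of fat absorption in the intestine, ranged from -1.14 to 0.51 in LGI, with a median of -0.38, and from -0.66 to 0.97 in HGI, with a median of 0.25. Of the HGI mice, 7 of 9 lay above the LGI median and 4 above the highest LGI mouse. The means were -0.31 ± 0.59 (SD, n = 8) and 0.16 ± 0.61 (SD, n = 9). The difference was 0.47 ± 0.25 (SE) or 1.39-fold, with an unadjusted p of 0.0778 and an adjusted p of 0.675 (limma). Without HGI 9 and HGI 10, which read -0.26 and -0.47, it was 0.62 (limma unadjusted p = 0.0244, adjusted p = 0.565), and the exact permutation test then gave 0.0684. Mogat2 has a single probe, well above background on all 17 arrays.

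**Figure D3:**
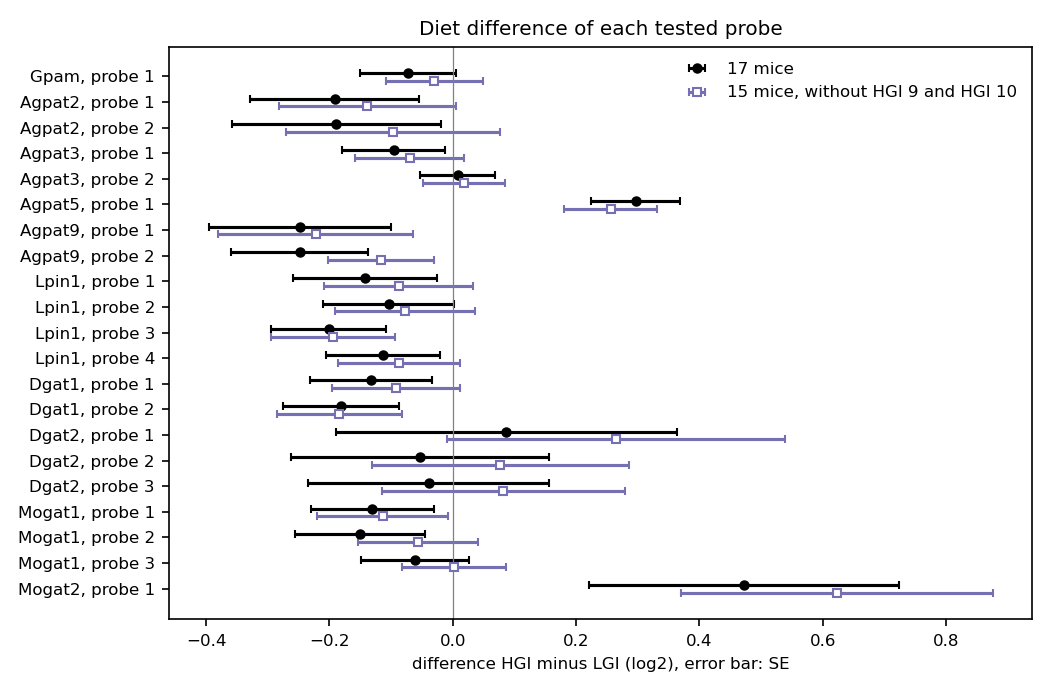
Diet difference HGI minus LGI (log2, horizontal axis, with the SE) of the 21 tested probes over 17 mice (black circles) and over 15 mice without HGI 9 and HGI 10 (purple squares). The 4 Lpin1 and 2 Dgat1 probes lie left of 0 both ways, the Agpat5 and Mogat2 probes lie right of 0, and 2 of the 3 Dgat2 probes change side between the sets of mice.

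The routes were then compared within each mouse. The mean of the 6 genes of the glycerol phosphate route (Gpam, Agpat2, Agpat3, Agpat5, Agpat9 and Lpin1) was -0.06 ± 0.15 in LGI and -0.13 ± 0.09 (SD) in HGI, a difference of -0.08 ± 0.06 (SE). The mean of Mogat1 and Mogat2 was -0.06 ± 0.24 in LGI and 0.11 ± 0.25 (SD) in HGI, a difference of 0.17 ± 0.12 (SE). Subtracting the second from the first in each mouse gave 0.00 ± 0.25 (SD, n = 8) in LGI and -0.24 ± 0.20 (SD, n = 9) in HGI. All 9 HGI mice were below 0, from -0.56 to -0.03. The LGI mice ran from -0.42 to 0.33, with 4 of 8 above 0. Only HGI 2 and HGI 3, at -0.45 and -0.56, lay below the lowest LGI mouse. The place of 0 depends on the pool and the probes. The Agpat3 probe in this score read below 0 in every mouse, and its second probe did not. The diet difference of the contrast, -0.25 ± 0.11 (SE), carries no test, since the genes were chosen with results of these data known.

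Within the monoacylglycerol route the contrast rested on Mogat2. The 6 glycerol phosphate genes set against Mogat2 alone gave -0.55, and set against Mogat1 alone gave 0.05, the opposite sign. Gpam, Agpat2 and Lpin1 in place of the 6 gave -0.61 against Mogat2 and -0.00525 against Mogat1. The contrast was -0.30 without HGI 9 and HGI 10, which read -0.03 and -0.06, and within the scanning order it was -0.32 for the first 8 and -0.19 for the later 9. With the M77003 probe in place of the Gpam probe it was -0.29. Beside this result, the mean of the 8 macrophage markers, all well above background on all 17 arrays, ranged from -0.15 to 0.08 in LGI. In HGI it ranged from -0.22 to 0.48, and from -0.09 to 0.48 without HGI 9 and HGI 10. Of the 8 markers, 7 were higher in HGI, against 52.6% of all genes. Of these, Mpeg1 and Cd84 had an unadjusted p under 0.05, at 0.39 ± 0.11 and 0.24 ± 0.07 (SE, limma adjusted p = 0.520 for both). They were at 0.43 and 0.28 without HGI 9 and HGI 10. Over all genes, 3.97% were called higher at this level. The mean of the 9 adipocyte markers ranged from -0.27 to 0.15 in LGI. In HGI it ranged from -0.29 to 0.09, and from -0.15 to 0.09 without HGI 9 and HGI 10. Of the 9, 7 were lower in HGI, against 47.4% of all genes. Plin1 had an unadjusted p under 0.05, at -0.22 ± 0.10 (SE, limma adjusted p = 0.616), against 3.78% of all genes called lower. Without HGI 9 and HGI 10 Plin1 was at -0.14, and 1 of the 9 was called, Fabp4, at -0.17, against 7.79% of all genes in either direction. Over all 17 arrays Fabp4 was at -0.05, and it read 0.10 in both HGI 9 and HGI 10. The part of both marker lists in the contrast was not tested.

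**Figure D4:**
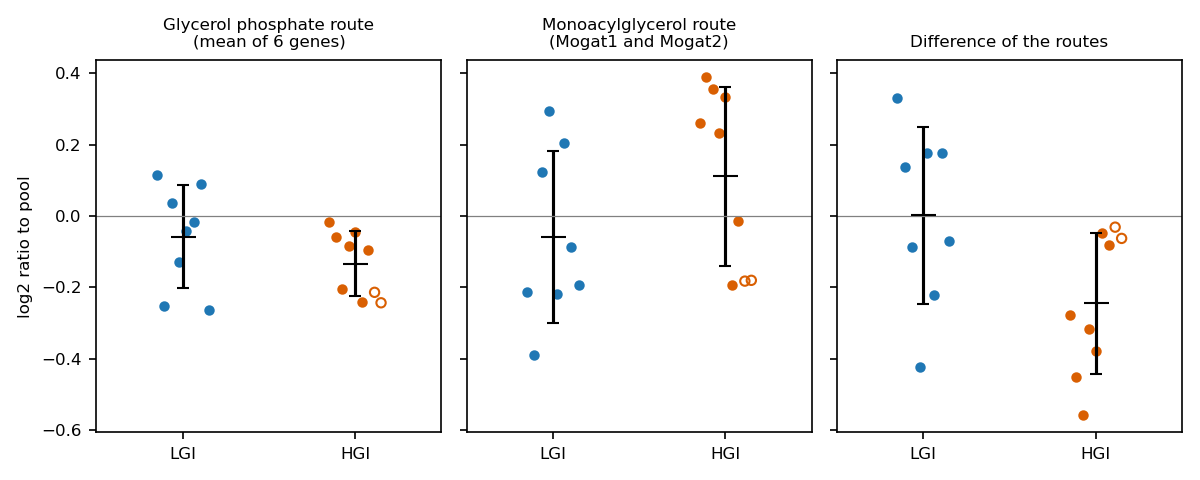
Mean log2 ratio to the pool (vertical axis) of the 6 glycerol phosphate genes, of Mogat1 and Mogat2, and their difference, 1 point a mouse, LGI in blue and HGI in orange, open circles for HGI 9 and HGI 10, black marks for the mean and SD. In the right panel all 9 HGI mice lie below 0, and 4 of the 8 LGI mice lie above it. All HGI mice except HGI 2 and HGI 3 lie within the LGI range.

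Whether the genes varied together was asked over the 15 mice other than HGI 9 and HGI 10, for all 45 pairs. These 15 values share the pool, the array design and the scanning day. The permutation test of Pearson's r gave an unadjusted p under 0.05 for 11 pairs and an adjusted p under 0.05 for 0 of 45. By Spearman's rho 1 pair passed after adjustment. The share of all gene pairs at an unadjusted p under 0.05 was not computed, so the 11 are not set apart from other genes. The strongest pair by Spearman's rho was Mogat1 with Mogat2, which ran opposite ways: r = -0.74 (permutation p = 0.00247, adjusted 0.0866 over the 45 pairs) and rho = -0.80 (permutation p = 0.00052, adjusted 0.0234). Mice with the highest Mogat2, such as HGI 2 at 0.97, had the lowest Mogat1, -0.19, and LGI 2 had 0.36 for Mogat1 and -1.14 for Mogat2. Without the 2 mice farthest from the median of Mogat1, r was -0.67, and it was -0.62 within LGI, -0.86 within the other 7 HGI mice, and -0.53 and -0.93 in the earlier and later scans. The 2 further Mogat1 probes gave r = -0.45 and -0.51 with Mogat2.

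Agpat2 and Dgat2 ran together, at r = 0.70 and rho = 0.66 (permutation p = 0.00577 and 0.00978, adjusted 0.0866 and 0.132). The r was 0.81 within LGI and 0.85 within the 7 HGI mice, 0.80 and 0.76 in the earlier and later scans, and 0.47 without the 2 mice farthest from the median of Agpat2. Over all 17 mice r was 0.73 and rho was 0.76 (permutation p = 0.0008 and 0.00045, adjusted 0.036 and 0.0203), and HGI 9 and HGI 10 lay low on both genes. The 2 last-step enzymes did not follow each other: Dgat1 and Dgat2 had r = -0.20 and rho = -0.23 (permutation p = 0.468 and 0.405, adjusted over the 45 pairs in the same way). Dgat1 ran instead with Gpam, at r = 0.58 and rho = 0.61 (permutation p = 0.0235 and 0.0176, adjusted 0.142 and 0.132), and r was 0.56 without the 2 mice farthest from the median of Gpam.

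**Figure D5:**
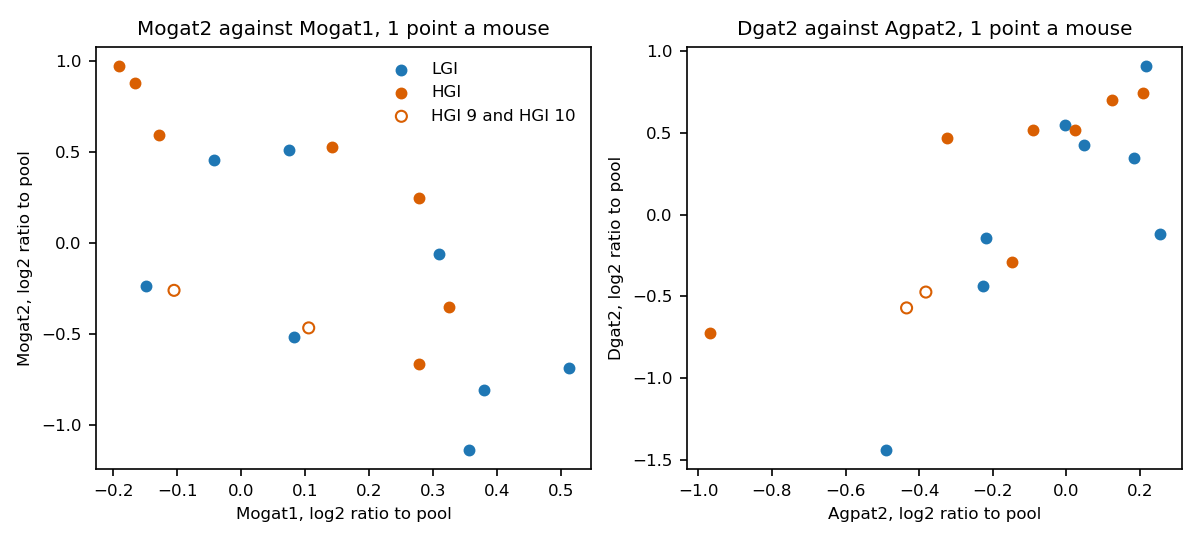
Log2 ratio to the pool of Mogat2 against Mogat1 (left) and of Dgat2 against Agpat2 (right), 1 point a mouse, LGI in blue, HGI in orange and open circles for HGI 9 and HGI 10. Over the 15 filled points r is -0.74 on the left and 0.70 on the right.

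Agpat5 and Mogat2, the pair with the largest positive diet differences, also ran together (r = 0.70, rho = 0.65; permutation p = 0.00496 and 0.00984, adjusted 0.0866 and 0.132). The r was 0.59 without the 2 mice farthest from the median of Agpat5 and 0.57 after each diet's mean was subtracted. Over all 17 mice r was 0.49 and rho was 0.42 (permutation test, adjusted p = 0.20 and 0.40). HGI 9 and HGI 10 were high on Agpat5, at 0.35 and 0.39, and read -0.26 and -0.47 on Mogat2. Agpat3 went with Mogat1 (r = 0.63, rho = 0.56; permutation p = 0.0136 and 0.0336, adjusted 0.102 and 0.178) and against Mogat2 (r = -0.64, rho = -0.63; permutation p = 0.0105 and 0.0147, adjusted 0.0949 and 0.132). Without the 2 mice farthest from the median of Agpat3 these were 0.57 and -0.58. Lpin1 went with Mogat1 (r = 0.58, rho = 0.58; permutation p = 0.0253 and 0.0275, adjusted 0.142 and 0.177), though r was -0.08 among the earlier scans and 0.82 among the later ones, and 0.82 without the 2 mice farthest from the median of Lpin1. Dgat2 went with Mogat2 (r = 0.63 and rho = 0.62, with permutation p = 0.00981 and 0.0152, adjusted 0.0949 and 0.132). Without the 2 mice farthest from the median of Dgat2 this r was 0.38. The rest of the 11 pairs were Agpat5 with Dgat2 (r = 0.55), Agpat9 with Dgat2 (0.52) and Agpat2 with Agpat3 (-0.55). None of these pairs passed the threshold after adjustment.

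Agpat3, Lpin1 and Mogat1, whose pairs above did not pass after adjustment, each have an entry in the RefSeq promoter table (GRCm38.p6). Of the 10 genes, 6 have an entry there, in 7 windows; those not listed are Agpat5, Dgat1, Dgat2 and Mogat2. The 250 bases before the start of each are shown 5′ to 3′ on the gene's strand, so that their base composition and the searched motifs can be compared, and capitals mark the matches found, 1 in Agpat3 and 1 in Lpin1:
Mogat1 (chr1:78510810-78511059, plus strand): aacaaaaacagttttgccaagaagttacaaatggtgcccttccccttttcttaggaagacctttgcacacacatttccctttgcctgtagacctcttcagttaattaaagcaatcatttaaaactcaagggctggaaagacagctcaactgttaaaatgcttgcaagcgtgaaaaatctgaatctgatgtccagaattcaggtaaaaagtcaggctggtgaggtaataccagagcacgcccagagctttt
Agpat3 (chr10:78351701-78351950, minus strand): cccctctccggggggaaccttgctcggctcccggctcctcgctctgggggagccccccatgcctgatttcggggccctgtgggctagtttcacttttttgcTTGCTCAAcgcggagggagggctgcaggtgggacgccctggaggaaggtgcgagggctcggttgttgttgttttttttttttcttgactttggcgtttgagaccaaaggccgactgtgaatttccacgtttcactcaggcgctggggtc
Lpin1 (chr12:16610967-16611216, minus strand): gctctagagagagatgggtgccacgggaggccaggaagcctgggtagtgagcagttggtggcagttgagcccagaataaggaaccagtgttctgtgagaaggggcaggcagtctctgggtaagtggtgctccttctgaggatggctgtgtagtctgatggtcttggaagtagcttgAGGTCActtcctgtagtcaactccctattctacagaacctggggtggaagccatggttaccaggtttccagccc
The GC content of these windows was 41.2%, 59.6% and 54.8%, against a median of 52.4% over all windows. The motifs searched on both strands were the E-box CACGTG (in 6.02% of the 32851 windows of this length), the nuclear receptor half-site AGGTCA (14%), the C/EBP-type TTGCNNAA (9.56%), the CCAAT box CCAAT (33.8%), the TATA box TATAAA (12.4%) and the GC box GGGCGG (32.7%). In the Agpat3 window TTGCNNAA began 149 bases before the start, in the Lpin1 window AGGTCA began 74 bases before it, and the Mogat1 window held none of the 6 motifs. In the other windows, the GC box occurred for Agpat2, Gpat3 and one of the 2 starts of Gpam, which also held AGGTCA, and the CCAAT box for the other start of Gpam. The E-box and the TATA box occurred in 0 of the 7 windows. A match is a description of letters and not a bound site.

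The genes nearest in pattern over the same 15 mice, by Pearson's r among all tested genes, differed from member to member. They are a description, and each was picked as one of the highest among 18133. For Mogat2 they were Cryab, a small heat shock protein (r = 0.96), and Atox1, a copper chaperone (0.95). For Dgat2 they were Mrap, an accessory protein of the melanocortin receptor (0.94), and Ptger3, a prostaglandin E receptor (0.93). For Mogat1 they were Mtch2, a mitochondrial outer membrane protein, and Retn, the adipokine resistin (0.90 and 0.89). For Agpat2 the nearest was Gpd1, the dehydrogenase that supplies glycerol-3-phosphate (0.88). For Agpat3 they were the transcript AK044272 (0.86) and Ccdc69 (0.85). These 9 values lay between 0.84 and 0.96 over all 17 arrays. The likeness of most neighbours of the other 5 genes was lower once HGI 9 and HGI 10 were included. For Agpat5, Serpinh1, a collagen chaperone, and Fez2 (both 0.91) went to 0.52 and 0.38 over 17 arrays. For Gpam, Cpa4 (0.87) and Car11 (0.84) went to 0.71 and -0.11. For Agpat9, Nrg4 (0.87) and Smo (0.85) went to 0.53 and 0.74. For Lpin1, Gdap10 and Hpgd (both 0.82) went to 0.62 and 0.31. For Dgat1, Aqp2 went from 0.87 to 0.19, and Grina was at 0.87 both ways.

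The neighbouring steps of the pathway were described by pathway lists, and no gene of any passed the adjusted threshold. Over all genes, 47.4% were lower in HGI. At an unadjusted p under 0.05 (limma), 3.78% of all genes were called lower and 3.97% higher. Of 10 other acyltransferases and phosphatidate phosphatases, 3 were higher and 7 lower in HGI, with a median of -0.04 and 0 at an unadjusted p under 0.05 (limma). The smallest p belonged to Plpp1, a membrane lipid phosphate phosphatase, at 0.33 ± 0.17 (SE); it read 0.87 and 0.75 in HGI 9 and HGI 10 and was at 0.09 without them. Gpat2 followed, at -0.11 ± 0.07. Of the acyl-CoA synthetases, which activate fatty acids for every acylation, 4 of 5 were tested, 2 were higher and 2 lower, and the median was -0.02. Acsl5 was at 0.17 ± 0.08 (SE; limma unadjusted p = 0.0427, adjusted p = 0.634) and Acsl1, the main form of fat cells, at -0.20 ± 0.10. In the phospholipid branch, which draws on the same phosphatidate and diacylglycerol, 8 of 9 genes were lower, with a median of -0.03 and 0 at an unadjusted p under 0.05 (limma). Chpt1, a cholinephosphotransferase, was at -0.14 ± 0.11, and Ptdss1, a phosphatidylserine synthase, was at 0.09 ± 0.07.

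Of 12 lipid droplet and lipolysis genes, 9 were lower in HGI, against 47.4% of all genes, with a median of -0.07. Of the 12, 3 had an unadjusted p under 0.05 in that direction (limma), against 3.78% of all genes. They were the droplet coat genes Plin1, at -0.22 ± 0.10, and Plin4, at -0.21 ± 0.10, and Pnpla2, the lipase that starts triglyceride breakdown, at -0.20 ± 0.10 (SE; limma adjusted p = 0.616, 0.639 and 0.644). Pnpla2 was named after its values were seen, to complete the count. Without HGI 9 and HGI 10, 0 of the 12 genes had an unadjusted p under 0.05 in that direction (limma), and Plin1, Plin4 and Pnpla2 were at -0.14, -0.16 and -0.18; the median of the list was then 0.00. All 6 regulators were lower, against 47.4% of all genes, with a median of -0.25, and -0.15 without those arrays. Of the 6, 2 had an unadjusted p under 0.05 in that direction (limma), against 3.78% of all genes. Srebf1, a transcription factor of lipid synthesis, was at -0.36 ± 0.14 and Cebpa, a transcription factor of fat cells, at -0.24 ± 0.10 (SE; limma unadjusted p = 0.0172 and 0.0281, adjusted p = 0.567 and 0.596); Cebpa read -0.87 and -0.65 in HGI 9 and HGI 10 and was at -0.15 without them. In those 15 mice 2 of the 6 regulators had an unadjusted p under 0.05 (limma), against 7.79% of all genes in either direction. They were Srebf1 at -0.34 and Mlxipl, a carbohydrate-responsive factor, at -0.39. Mlxipl was chosen after its values were seen. Over all genes, 0% passed the adjusted threshold.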

How the data were processed

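Gene expression was measured in 17 mice on 2-colour Agilent arrays, 1 array a mouse, with Cy5 for the mouse and Cy3 for the pool per the labels. The authors deposited spot intensity values with local background and 0/1 quality flags from Feature Extraction, version 9.1.3.1 per the file headers and 9.5.1.1 per the submitters' processing notes. They also deposited a table of log2 values of 19836 probes, whose normalization is not given in the sources used here. Its column medians were 8.33, and its columns correlated with the log2 Cy5 signal of their own arrays at 0.98 to 0.99. With each probe centred over the arrays, those correlations were 0.39 to 0.80, and 0.43 to 0.85 with the log ratios of the same arrays. The slope on the centred log ratio was 0.43 to 0.69. This table was used as an alternative. The design text speaks of 19 arrays, of which the authors excluded 2 on quality.

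Here spot intensities were background-corrected (normexp, offset 50), normalized by loess within arrays and averaged over spots of a probe, without controls and 4 to 43 outlier spots an array. Probes well above background in Cy5 on at least 8 arrays were tested (25514 of 41174). A gene (18133) was represented by its brightest probe. Diets were compared with limma 3.58.1 (R 4.3.3; lmFit and eBayes, no covariate), with Benjamini-Hochberg adjustment over all genes or all probes, and correlations with 100000 permutations. The fit was tested on simulated data. RefSeq's gene table (GRCm38.p6) named 23374 probes through their accession, 6733 through the current symbol and 2919 through a former one; the remaining 8148 kept the file's name. The slides hold 1 array each. Nothing in the labels says that mice were housed singly, so the tests speak only of the spread among these mice. The genes and lists were chosen with earlier results of these data known; named are all 10 genes, of each pathway list those past the adjusted threshold and the 2 with the smallest p (others named are marked or are cell type markers), and for each gene the 2 nearest in pattern, 1 of which is not reported here. Alternatives changed the background correction, normalization, channel, filter, probe choice, array weights, scan order and arrays included.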

Additional observations from a re-analysis of the deposited data

Results flagged for a closer look

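Within each diet, the highest and the lowest mouse were compared with their nearest neighbour (Dixon's test) for the 22 probes, both route means and their contrast, 50 groups in all. Chance alone marks about 1 in 20 such groups, and 2 were marked. On the Agpat5 probe, LGI 7 read 0.29 while the next LGI mouse read -0.04, a gap of 0.63 of the range. On a further Dgat2 probe, LGI 2 read -1.11 while the next LGI mouse read -0.28, a gap of 0.58 of the range.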

How the results depend on the processing

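No gene of the 10 passed the adjusted threshold under any of the 35 alternatives in which it could be tested, Gpam being absent from the authors' values and from the probes well above background on all arrays. Of 348 values of single genes, 343 kept their direction. The exceptions were Dgat2 at -0.00195 with the mean of its probes, -0.44 in the later 9 arrays scanned and -0.12 without LGI 2 (leaving out 1 mouse gave -0.12 to 0.21), and, in the first 8 arrays scanned, Agpat2 at 0.0532 and Lpin1 at 0.0314; the cause was not tested. Gpam lay between -0.51 (processed signals of the scanner software) and -0.01. The number of genes with an unadjusted limma p under 0.05 was 4 with the authors' values (Agpat5, Agpat9, Mogat1 and Mogat2; 6.98% of all genes), 2 with the mean of a gene's probes (7.79%), 3 with array weights (9.78%), 3 in the later 9 arrays scanned (3.15%) and 2 without HGI 9 and HGI 10 (7.79%). Leaving out 1 mouse gave 1 to 3 (2 without LGI 2, LGI 7, HGI 6 or HGI 10, 3 without LGI 5; 5.91% to 8.99% of all genes), and for the route contrast -0.31 to -0.20. The contrast was -0.16 ± 0.12 (SE) with the authors' values, where Gpam is absent, and -0.33 with processed signals. It was -0.61 for Gpam, Agpat2 and Lpin1 against Mogat2 alone and -0.00525 for these 3 against Mogat1 alone. With all 6 glycerol phosphate genes it was -0.55 and 0.0547. Pairs of genes with an adjusted permutation p of Pearson's r under 0.05 numbered 1 over all 17 arrays and 1 after subtracting the diet means, Agpat2 with Dgat2 both times; by Spearman's rho they numbered 2, Mogat1 with Mogat2 being the other, and 0. The M77003 probe, the further Mogat1 probes, the 6 genes against either Mogat gene and the interaction without HGI 9 and HGI 10 were added after seeing the data. Replicate numbers occur in both diets for 14 arrays; deviations of the 7 same-numbered pairs correlated at -0.38 to 0.26, with 3 over 0.1, so the numbers were not taken as pairs. With the replicate block 0 genes passed and the contrast was -0.20, as without the block in those arrays. The slide as a random block was not run, since each slide holds 1 array. A probe near background, such as that of Gpam, limits what these arrays can show.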
